A study of Homo sapiens with 7 samples.

Results

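The 5 NF-κB subunits (RELA, RELB, REL, NFKB1 and NFKB2) and 5 genes of the IκB family (NFKBIA, NFKBIB, NFKBIE, NFKBIZ and BCL3) were followed in RH30 cells exposed to the Smac mimetic BV6. These 10 genes were taken by name from the 57189 genes of the deposited count table, and all 10 had enough counts to be tested. RH30, a long-established line, derives from alveolar rhabdomyosarcoma (RMS), a childhood tumor with skeletal muscle features, and BV6 is a bivalent small molecule that mimics Smac and triggers the loss of the IAP ubiquitin ligases. The 4 control libraries came from RH30 cells labelled untreated, with no vehicle named, and the 3 BV6 libraries from RH30 cells kept for 24 h in growth medium with 5 µM BV6. Both groups carry the genotype label wt, while the study's methods state that its RH30 cells expressed GFP and luciferase, so all comparisons concern a single cell line. The sample titles share a BC tag between an untreated and a BV6 sample for BC13, BC14 and BC25/27. These 3 pairs are called replicates 2, 3 and 4, and untreated replicate 1 (BC11) has no BV6 partner. What a BC tag stands for is not given in the sources used here, so p-values measure the spread between these samples.

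NF-κB is a family of dimeric transcription factors built from the 5 subunits. RELA (p65), RELB and REL (c-Rel) carry activation domains, whereas NFKB1 and NFKB2 encode the long precursors p105 and p100, which are processed to the DNA-binding forms p50 and p52. In resting cells, the classical inhibitors IκBα (NFKBIA), IκBβ (NFKBIB) and IκBε (NFKBIE) hold the dimers in the cytoplasm until the IKK complex marks them for degradation. In the non-canonical branch, the kinase NIK instead drives the processing of p100, the partner of RELB. IκBζ (NFKBIZ) and BCL3 are atypical, mostly nuclear members that modulate transcription. Several of these genes are themselves NF-κB targets, which gives the pathway its feedback. BV6 removes cIAP1 and cIAP2, the ligases that keep NIK low, and the comparison asks how the mRNA of the pathway's own factors stood after this treatment.

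The 7 libraries held 54070030 to 77220882 counts. The 10 genes had between 285 and 16229 counts per library. If counts were independent, counting error alone would be at most 5.92% of a value. The paper gives fewer sequencing reads per library than the totals above, so counts may not be independent and this error may be larger. Levels are given as CPM, counts scaled to a common library size after TMM normalization. A floor of 3 counts corresponds to 0.0389 to 0.0557 CPM, and this floor covers counting error only. The muscle markers were those of RMS, with MYOD1, a master regulator of myogenesis, at 344 ± 86.9 CPM (SD, n = 4) in untreated cells and the intermediate filament gene DES at 768 ± 114 CPM (SD, n = 4). Of 14 RMS markers, TFAP2B, CDH3 and MYF6 did not pass the filter on low counts and IGF2 was lower with BV6. The summed level of 13 NK and T cell markers ranged from 10.6 to 14.2 CPM in untreated and from 6.98 to 11.3 CPM in BV6 libraries, most of it NKG7, and the T cell gene CD3E stood at 0.205 ± 0.121 CPM (SD, n = 4) in untreated cells. For 11 myeloid and B cell markers these ranges were 13.6 to 24.2 and 15 to 25.4 CPM. For 8 fibroblast and endothelial markers they were 158 to 183 and 133 to 164 CPM, most of it THY1 and PECAM1. In these 3 lists of other cell types, 8 of 13, 6 of 11 and 5 of 8 markers passed the filter on low counts. None of those tested had an adjusted p below 0.05 by edgeR. In bulk RNA, fewer cells of a type and less RNA per cell cannot be told apart.

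The promoters of these genes are shown for the κB motifs they hold, the sites that NF-κB dimers bind. RefSeq windows (build GRCh38.p14, 250 bases before to 50 after a transcription start) were at hand for 8 of the 10 genes, with 14 windows in all, since some genes have several starts. No window was at hand for RELB and NFKBIE. A strict κB motif, GGG and TTTCC separated by any 2 bases and searched on both strands, lay in 7 of these 14 windows and in 6 of the 8 genes, against 1.91% of 35116 RefSeq windows. The looser κB consensus, whose matches overlap those of the strict motif, lay in 9 of the 14 windows and in 14% of all windows. The strict motif with A in both open positions, which both other motifs include, lay in 5 of the 14 windows (NFKB1, NFKBIA, NFKBIB, NFKBIZ and REL) and in 0.145% of all windows. Neither window of RELA held any of the 3 motifs. The stretches around the sites are given 5′ to 3′ on the strand of the gene, with the κB matches in capitals, and are kept short where they lie in an annotated UTR. They come from NFKBIA (chr14:35404791-35404860, minus strand, the site 81 to 72 bases before the start), NFKB2 (plus strand, chr10:102394462-102394490 and chr10:102394490-102394519, sites 107 to 97 and 78 to 69 bases before the middle of its 3 starts, and chr10:102395674-102395703, 21 to 12 bases before its last start), NFKB1 (chr4:102501280-102501349, plus strand, 49 to 40 bases before the start), REL (chr2:60881518-60881546, plus strand, 47 to 37 bases before), NFKBIB (chr19:38899911-38899981, plus strand, 28 to 18 bases before) and NFKBIZ (chr3:101827757-101827786, plus strand, 223 to 214 bases before the upstream start). In NFKBIA and REL, the strict motif is on the opposite strand. The far site of NFKB2 matches the consensus alone. Further sites that match the consensus alone, in BCL3, NFKB2, NFKBIB and NFKBIZ, are not printed.
NFKBIA: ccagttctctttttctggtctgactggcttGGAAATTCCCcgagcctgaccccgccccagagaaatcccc
NFKB2 (middle start, far site): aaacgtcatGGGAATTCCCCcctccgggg
NFKB2 (middle start, near site): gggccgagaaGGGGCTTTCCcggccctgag
NFKB2 (last start): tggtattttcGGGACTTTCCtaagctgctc
NFKB1: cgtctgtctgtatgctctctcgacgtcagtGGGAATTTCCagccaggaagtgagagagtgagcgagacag
REL: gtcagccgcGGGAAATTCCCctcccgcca
NFKBIB: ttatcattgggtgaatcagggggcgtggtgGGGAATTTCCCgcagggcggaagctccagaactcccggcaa
NFKBIZ: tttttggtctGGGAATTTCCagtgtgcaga

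By edgeR with the block (below), the strict motif was present in NFKB2, NFKBIA and NFKB1, which passed, and in REL, NFKBIB and NFKBIZ, which did not. A match is a description of the sequence and not a measurement of binding.

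**Figure D1:**
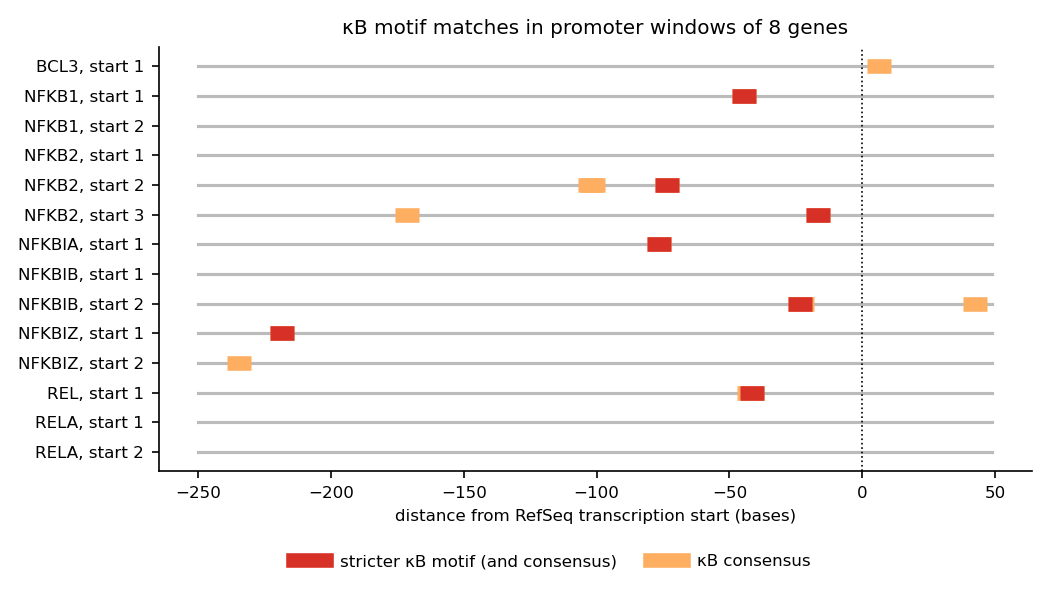
Positions of κB motif matches in 14 RefSeq promoter windows of 8 genes, drawn as distance in bases from the transcription start (dotted line). Red blocks match the strict κB motif as well as the κB consensus, and orange blocks match the consensus alone. Red blocks lie in 7 windows, and the 2 RELA windows are empty.

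By edgeR's quasi-likelihood test without the pairing, NFKB2 and NFKBIA passed, 2 of the 10 genes, and both were higher with BV6. Of the 23124 genes tested, 0.394% were called higher and 0.0562% lower. With the replicate number (the shared BC tag) as a block, 5 of the 10 were called higher, namely NFKBIA, NFKB2, NFKBIE, RELB and NFKB1, against 0.649% of genes. Untreated replicate 1 is alone in its block, so the effect in this fit rests on the 3 pairs. RELA, REL, NFKBIB, NFKBIZ and BCL3 passed in neither fit. The level was higher in the BV6 sample of all 3 pairs for 7 of the 10 genes and lower in all 3 for none, where 15.5% of all genes tested were higher and 17.8% lower in all 3 pairs. In 4 genes (NFKB1, NFKB2, NFKBIA and NFKBIE), each BV6 library lay above each untreated one, as did 4.94% of the genes tested. The median log2 fold change of the 10 genes was 0.39, beside -0.014 for all genes tested.

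**Figure D2:**
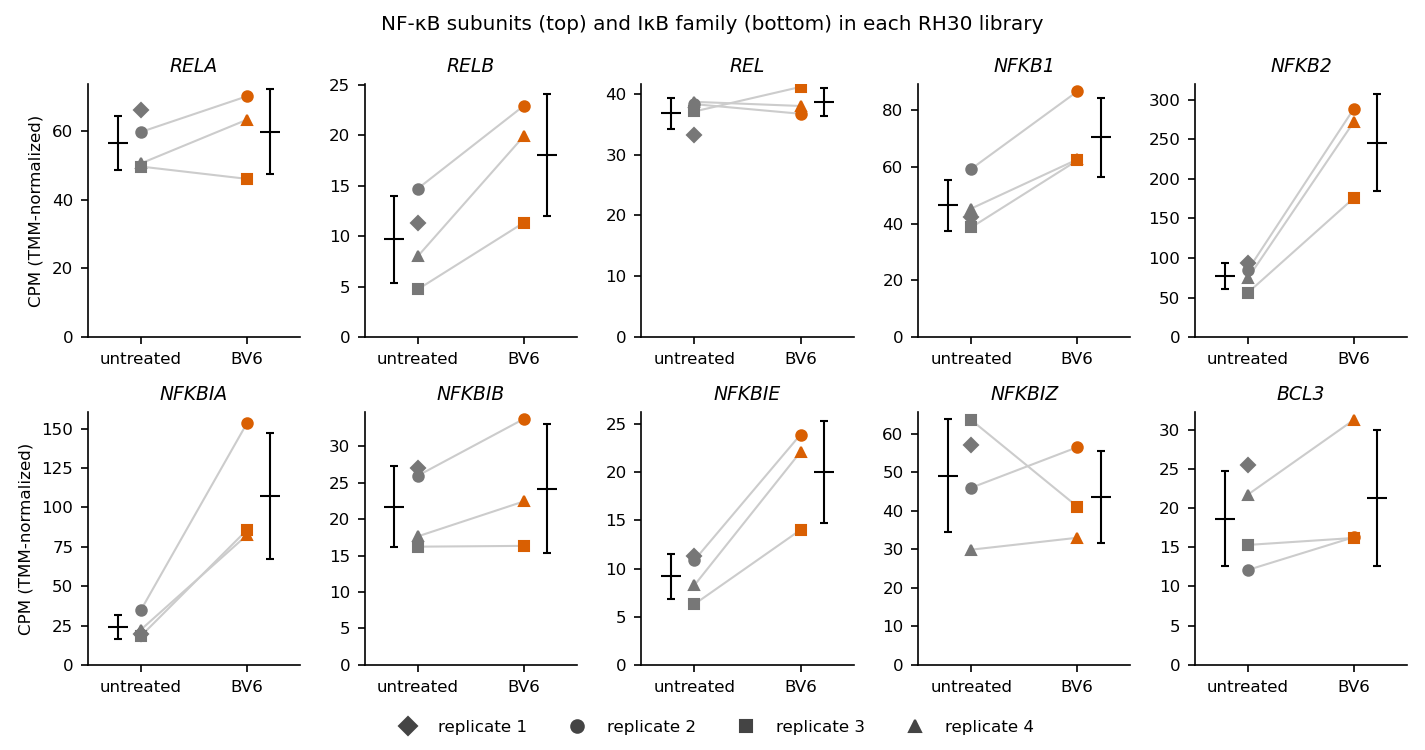
CPM of the 10 genes in each of the 7 RH30 libraries (grey untreated, orange BV6). Marker shapes give the replicate number, lines join samples that share a BC tag, and bars beside the points show mean ± SD (n = 4 untreated, n = 3 BV6). NFKB2 and NFKBIA have the widest gaps between groups, with BV6 minima of 176 and 82.4 CPM above untreated maxima of 93.8 and 34.9 CPM.

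Among the subunits, NFKB2 mRNA, which encodes p100, changed most. Its level was 93.8, 84.9, 56.2 and 74.6 CPM in untreated replicates 1 to 4 and 289, 176 and 272 CPM in BV6 replicates 2 to 4. All BV6 libraries lay well above all untreated ones, and the rise within pairs was 3.41-fold, 3.13-fold and 3.65-fold. In edgeR this was 1.67 ± 0.207 on the log2 scale (standard error, with adjusted p = 0.011), or a fold of 3.18 with a 95% confidence interval from 2.30 to 4.38. The block gave 1.76 ± 0.0885 in edgeR (standard error, with adjusted p = 0.000325). Without untreated replicate 4, the adjusted p of the unpaired edgeR fit was 0.0536 with the log2 fold change at 1.65.

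NFKB1, the gene of p105 and thereby of p50, moved less. It stood at 42.4, 59.3, 38.7 and 45.3 CPM in untreated replicates 1 to 4 and at 86.6, 62.3 and 62.7 CPM in BV6 replicates 2 to 4. The groups did not overlap, although the lowest BV6 library (62.3 CPM) was close to the highest untreated one (59.3 CPM). Within pairs the level was 1.46-fold, 1.61-fold and 1.38-fold higher. In edgeR, the log2 fold change was 0.60 (95% confidence interval 0.21 to 0.99) with an adjusted p of 0.288. The block lowered that p to 0.0454 in edgeR, at a log2 fold change of 0.57.

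RELB encodes the partner of p100 and p52 in the non-canonical branch. It stood at 11.3, 14.7, 4.73 and 8 CPM in untreated replicates 1 to 4 and at 22.9, 11.3 and 19.9 CPM in BV6 replicates 2 to 4. The groups overlapped because BV6 replicate 3 was only as high as untreated replicate 1 and below untreated replicate 2. Its untreated libraries spanned a 3.11-fold range, the widest of the 10 genes, and their order carried over to the BV6 libraries, so that the level rose 1.56-fold, 2.40-fold and 2.49-fold within the pairs. In edgeR, the change was 0.90 ± 0.358 (log2, standard error) with an adjusted p of 0.556, and under the block 1.07 ± 0.164 with an adjusted p of 0.0322.

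RELA, the main activating subunit of the canonical branch, had similar levels in both groups. Its CPM was 66.2, 59.7, 49.6 and 50.6 in untreated replicates 1 to 4 and 70.1, 46.1 and 63.3 in BV6 replicates 2 to 4. The ranges overlapped almost fully, and the pairs disagreed in direction, with replicate 3 lower after BV6 and replicates 2 and 4 higher. The fold was 1.06 with a 95% confidence interval from 0.819 to 1.37, and the adjusted p was 0.919 (edgeR). RELA shares 103 exonic bases with RELA-DT on the opposite strand.

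REL, whose product c-Rel is best known from lymphocytes, was the steadiest of the 10 genes. It ranged from 33.1 to 38.7 CPM in untreated and from 36.7 to 41.1 CPM in BV6 libraries. The untreated libraries spanned 1.17-fold and the BV6 libraries 1.12-fold. The fold was 1.05 with a 95% confidence interval from 0.886 to 1.24 (adjusted p = 0.883, edgeR). A long noncoding gene on the same strand (ENSG00000267520 in GENCODE release 44) shares 33.3% of the exonic bases of REL, and reads from both cannot be told apart.

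**Figure D3:**
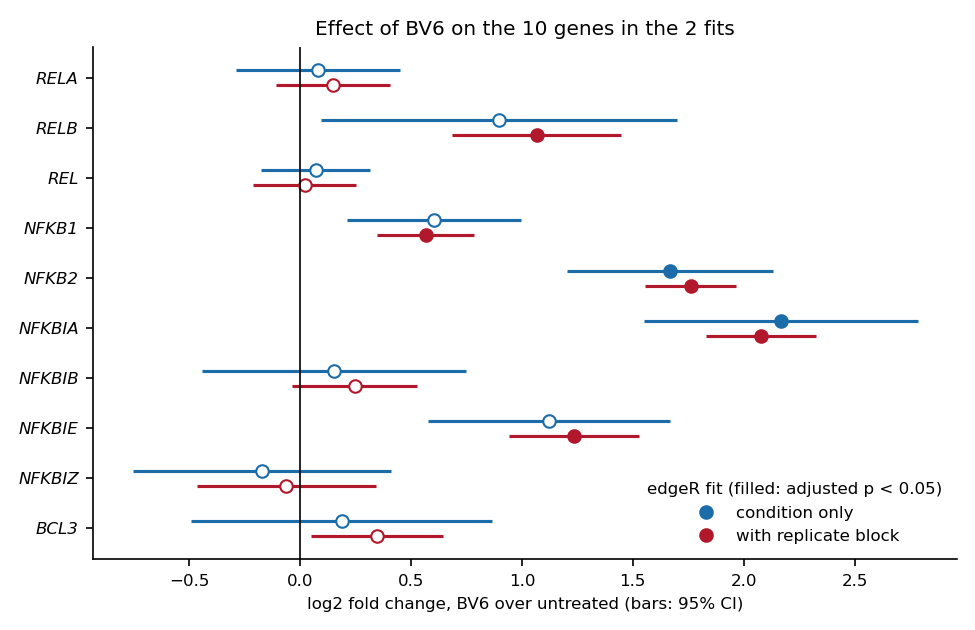
Log2 fold change (BV6 over untreated, x axis) of the 10 genes by edgeR, without the pairing (blue) and with the replicate block (red, resting on the 3 pairs). Bars are 95% confidence intervals and filled points have an adjusted p below 0.05, which holds for 2 genes without and 5 genes with the block. The intervals of RELA, REL, NFKBIB and NFKBIZ include 0 in both fits.

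NFKBIA, the gene of IκBα and the classical feedback inhibitor of NF-κB, had the largest fold of the 10 genes. It stood at 19.8, 34.9, 18.4 and 22.4 CPM in untreated replicates 1 to 4 and at 154, 85.7 and 82.4 CPM in BV6 replicates 2 to 4. The groups did not overlap, and replicate 2 was the highest library of its group in both conditions. Within pairs, the level rose 4.39-fold, 4.67-fold and 3.68-fold. In edgeR the change was 2.17 ± 0.275 on the log2 scale (standard error, with adjusted p = 0.0116), a fold of 4.49 with a 95% confidence interval from 2.93 to 6.89. Under the block, edgeR gave 2.08 ± 0.106 (adjusted p = 0.000325). As for NFKB2, leaving out untreated replicate 4 took the adjusted p of the unpaired edgeR fit just over the threshold, to 0.0579.

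NFKBIE encodes IκBε, the third classical inhibitor. Its CPM was 11.3, 10.9, 6.31 and 8.28 in untreated replicates 1 to 4 and 23.9, 14.0 and 22.1 in BV6 replicates 2 to 4. The groups did not overlap, and the rise within pairs was 2.20-fold, 2.22-fold and 2.67-fold. The log2 fold change of 1.12 (standard error 0.243) had an adjusted p of 0.127 without the block and, at 1.23, of 0.00832 with it (both edgeR). The DESeq2 Wald test named in the study's methods gave an adjusted p of 0.00362, and called 1.02% of the genes it tested as higher.

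NFKBIB, the gene of IκBβ, ranged from 16.2 to 27.1 CPM in untreated and from 16.3 to 33.8 CPM in BV6 libraries. Its fold was 1.11 with a 95% confidence interval from 0.736 to 1.68 (adjusted p = 0.897, edgeR), which is below that of NFKBIA over its whole length. The pairs gave 1.30-fold, 1.01-fold and 1.27-fold. NFKBIB shares 40 exonic bases with SIRT2 on the opposite strand.

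The atypical members did not pass the test either. NFKBIZ stood at 57.1, 46.0, 63.6 and 29.9 CPM in untreated replicates 1 to 4 and at 56.5, 41.1 and 33.0 CPM in BV6 replicates 2 to 4. The groups overlapped, and the pairs differed in direction, with 1.23-fold and 1.10-fold in replicates 2 and 4 and 0.647-fold in replicate 3. It was the only one of the 10 genes with a negative log2 fold change, -0.17 (95% confidence interval -0.76 to 0.41, adjusted p = 0.877, edgeR). NFKBIZ shares 194 exonic bases (3.29% of its own) with NXPE3 on the same strand, and reads from these bases cannot be told apart. BCL3 ranged from 12.1 to 25.5 CPM in untreated and from 16.2 to 31.3 CPM in BV6 libraries, and its level was higher in all 3 pairs by 1.35-fold, 1.06-fold and 1.44-fold. Its log2 fold change was 0.19 without and 0.35 with the block, with adjusted p of 0.887 and 0.361 (both edgeR). BCL3 shares 65 exonic bases with MIR8085 on the same strand.

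Because a ratio of 2 genes within a library does not depend on library size, 5 such ratios were compared by an exact two-sided permutation test, which for 4 against 3 samples cannot give a p below 0.0571. NFKBIA had 0.298 to 0.585 counts per count of RELA in untreated and 1.30 to 2.19 in BV6 libraries. NFKB2 had 1.13 to 1.48 counts per count of RELA in untreated and 3.82 to 4.31 in BV6 libraries. The NFKB2 to NFKB1 ratio was 1.43 to 2.21 in untreated and 2.83 to 4.35 in BV6 libraries. NFKBIB had 0.744 to 1.37 counts per count of NFKBIA in untreated and 0.191 to 0.272 in BV6 libraries. In each of these 4 ratios the groups did not overlap (exact permutation p = 0.0571, 0.0714 after Benjamini-Hochberg adjustment over the 5 ratios). The RELB to RELA ratio overlapped, with 0.0953 to 0.246 in untreated and 0.246 to 0.327 in BV6 libraries (exact permutation p = 0.114), although it was higher in all 3 pairs.

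To compare levels between genes, CPM was divided by the length of the GENCODE 44 exon union of each gene in kilobases. The paper counted reads on isoforms of an Ensembl annotation, so these lengths may differ from those of the counted sequence. REL and NFKB1 had the longest unions, at 17129 and 15679 bases. In untreated cells, NFKB2 was the most abundant at 13.9 ± 2.89 CPM per kb (SD, n = 4), followed by RELA at 10.4 ± 1.45 CPM per kb (SD, n = 4), and NFKB2 exceeded RELA in all 4 libraries. NFKBIB (9.35), NFKBIZ (8.33), NFKBIA (7.03) and BCL3 (6.03 CPM per kb) came next, with ranges that overlapped between neighbours in this order. NFKBIE (3.56), RELB (3.23) and NFKB1 (2.96 CPM per kb) followed, again with overlap between neighbours, and REL was the lowest at 2.15 ± 0.147 CPM per kb (SD, n = 4), below NFKB1 in all 4 libraries. With BV6, NFKB2 (44 ± 10.9) and NFKBIA (31.6 ± 11.8 CPM per kb, both SD, n = 3) stood above all others, and in each BV6 library NFKBIA lay above RELA (11.0 ± 2.27 CPM per kb). Dividing by the longest transcript instead kept NFKB2 first and REL last in both groups and NFKBIA behind NFKB2 with BV6, while the order between them changed. In untreated cells NFKBIB moved from rank 3 to 5, BCL3 from 6 to 4 and NFKB1 from 9 to 7, and with BV6 NFKBIE moved from rank 5 to 9 and BCL3 from 7 to 4.

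As a share of the summed CPM per kb of the 5 subunits, NFKB2 took 42.4% ± 2.46 (SD, n = 4) in untreated cells and 64.8% ± 1.86 (SD, n = 3) with BV6. Its lowest BV6 library (62.9%) lay above its highest untreated one (45%). RELA took 32.1% ± 2.80 (SD, n = 4) of the sum without and 16.3% ± 0.525 (SD, n = 3) with BV6, although the level of RELA did not pass the test, since the sum of the subunits went from 32.6 ± 5.75 to 67.8 ± 15.6 CPM per kb. The share of RELB overlapped between the groups, at 9.59% ± 2.92 and 8.72% ± 1.05 (SD, n = 4 and n = 3). The 3 genes with activation domains, RELA, RELB and REL, together had 15.7 ± 2.63 CPM per kb without BV6 (SD, n = 4) and 19.2 ± 4.14 CPM per kb with it (SD, n = 3), with overlapping ranges.

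Within the IκB family, NFKBIA made up 20.6% ± 5.64 (SD, n = 4) of the summed CPM per kb in untreated cells and 48.8% ± 6.31 (SD, n = 3) with BV6, with no overlap. NFKBIZ was at 24.4% ± 7.80 in untreated and 11.7% ± 2.18 in BV6 libraries, and BCL3 at 17.8% ± 5.80 and 11.4% ± 5.59 (SD, n = 4 and n = 3). The classical inhibitors (NFKBIA, NFKBIB and NFKBIE) together stood at 0.609 ± 0.0567 of the summed subunits in untreated cells (SD, n = 4) and at 0.732 ± 0.143 with BV6 (SD, n = 3). This quotient overlapped between the groups, with BV6 replicate 4 (0.580) among the untreated libraries. These shares describe mRNA, and p50 and p52 cannot be told apart from their precursors by gene counts.

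**Figure D4:**
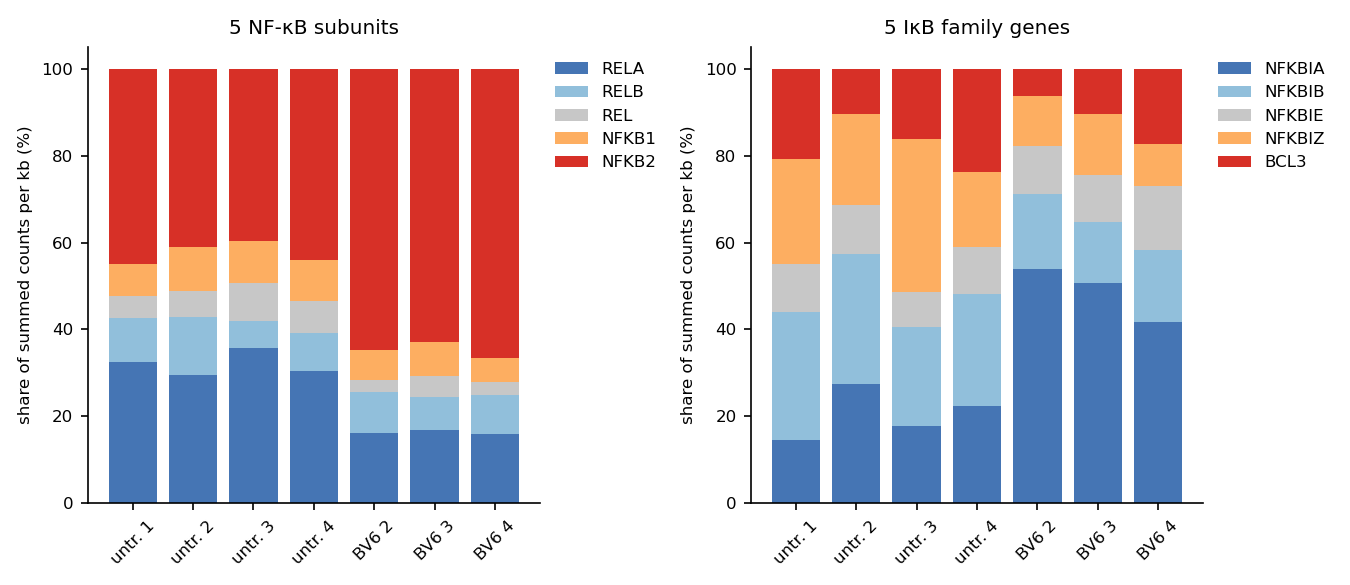
Share of each gene (percent, y axis) in the summed counts per kilobase of the 5 NF-κB subunits (left) and of the 5 IκB family genes (right), in untreated replicates 1 to 4 and BV6 replicates 2 to 4. The NFKB2 share is 39.7% to 45% in untreated and 62.9% to 66.6% in BV6 libraries, and the NFKBIA share 14.6% to 27.5% and 41.7% to 53.9%.

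Some libraries were the highest or lowest of their group for most of the 10 genes. Untreated replicate 3 was the lowest untreated library for 7 of the 10 genes, and its partner BV6 replicate 3 the lowest BV6 library for 7. BV6 replicate 2 was the highest BV6 library for 8 genes. The matching shares over all genes tested are not given here, so these counts are not read as a trait of the 10 genes. Both libraries of replicate 3 also had the largest share of counts on mitochondrial genes, 4.72% and 4.78%, against 3.14% to 4.19% in the other libraries, and the part of this in the gene levels was not tested. Changes within pairs had a smaller SD than the untreated levels for 7 of the 10 genes, the 5 called with the block as well as NFKBIB and BCL3. A small spread within pairs favours a call under the block, so for those 5 genes it is no separate support. The share of all genes tested with a smaller SD within pairs is not given here. For NFKB2, the SD of log2 CPM was 0.32 among untreated libraries and that of the log2 change within pairs 0.11. For RELB these values were 0.71 and 0.37, and for the uncalled BCL3 0.49 and 0.23. In RELA, REL and NFKBIZ the changes within pairs varied at least as much as the untreated libraries, with 0.50 and 0.48 for NFKBIZ.

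The surrounding pathway was described by lists. Of 21 genes of upstream kinases and adaptors, edgeR called 3 higher and none lower, and the list had a median log2 fold change of 0.088. These were BIRC3 (log2 fold change 4.86, adjusted p = 0.00341), TRAF1 (3.58, adjusted p = 0.00341) and BIRC2 (1.54, adjusted p = 0.0269, all edgeR), which encode cIAP2, a TRAF adaptor bound by the cIAPs, and cIAP1. None of the 3 encodes a kinase, and the paper counts cIAP1 and cIAP2 among the target genes of NF-κB. MAP3K14, the gene of NIK, was called in the same direction with the block only (log2 fold change 0.90, adjusted p = 0.0163, edgeR). None of 11 genes of the ubiquitin ligase machinery that acts on IκB proteins and p100 was called in either fit, nor of 16 nuclear partners of RELA, nor of 5 NFAT genes, the relatives that share the Rel homology region, nor of NFKBID and NFKBIL1, the remaining IκB-like genes. The medians of these lists were 0.016, -0.059, 0.00021 and -0.25 on the log2 scale, beside -0.014 for all genes tested. Of all genes tested, edgeR called 0.394% higher and 0.0562% lower, and 0.649% higher with the block. At these shares, a short list without a call does not set its genes apart from the rest.

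The list median of 9 genes of negative feedback was 0.38 on the log2 scale, beside -0.014 for all genes tested. By edgeR, 2 of them were called higher and none lower, against 0.394% and 0.0562% of all genes tested. Both encode deubiquitinases, CYLD (log2 fold change 0.96, adjusted p = 0.0109) and TNFAIP3 (A20, 0.86, adjusted p = 0.0145, both edgeR), and their changes were smaller than that of NFKBIA. Of 27 other textbook targets, 21 were tested and edgeR called 4 higher and none lower, with a list median of 0.51. These were the chemokine gene CCL5 (log2 fold change 4.72, adjusted p = 0.00167), TNFRSF9 (4-1BB, 2.87, adjusted p = 0.00574), the matrix protease gene MMP9 (2.80, adjusted p = 0.0363) and the transcription factor gene IRF1 (1.07, adjusted p = 0.0478, all edgeR). CCL5 and MMP9 were low in untreated cells, at 0.101 ± 0.0423 and 0.382 ± 0.120 CPM (SD, n = 4). IL6, TNF, CXCL1, CXCL10, BCL2A1 and PTGS2 did not pass the filter on low counts.

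**Figure D5:**
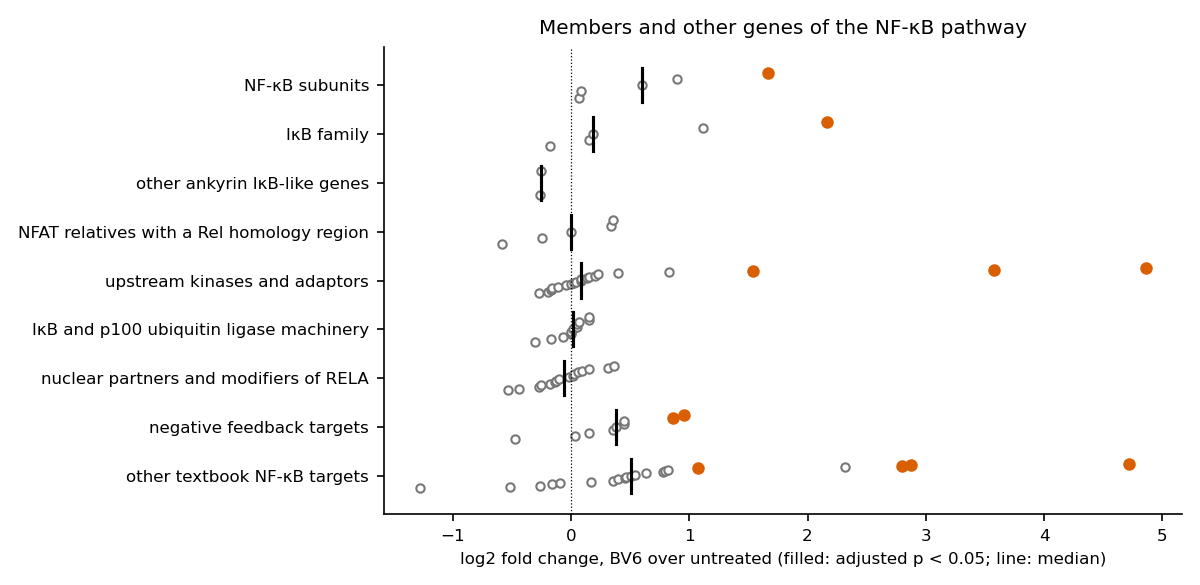
Log2 fold change (BV6 over untreated, x axis) of each tested gene in the 2 families and 7 lists of pathway genes, by edgeR without the pairing. Filled points have an adjusted p below 0.05 and black lines mark the list medians. Called genes lie in the subunit, IκB, upstream, feedback and target lists, and all of them are higher with BV6.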

How the data were processed

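The authors prepared stranded poly(A) libraries from RH30 RNA and sequenced them in paired-end mode. Reads were mapped with STAR 2.6.1d to GRCh38 (per the submitters' processing notes) and counted on a custom union of the transcript isoforms of each gene. The counting program and its use of strand are not given in the sources used here. The authors deposited raw counts per gene, without normalization, for 57189 genes.

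From these counts, genes were filtered with filterByExpr (minimum count 10), and 23124 genes were compared with edgeR 4.0.16 in R 4.3.3 (TMM normalization, quasi-likelihood F test, Benjamini-Hochberg adjustment over all genes tested, threshold 0.05). The design held the condition only, and a second fit added the replicate number, taken from the BC tags in the titles, as a block. Over the 6 paired samples, deviations from the group means correlated across genes at 0.704, 0.434 and 0.244 within replicates 2, 3 and 4, and each sample correlated best with its partner. With untreated replicate 1 included, these were 0.462, 0.438 and 0.0847, and replicate 4 no longer matched best, since BV6 replicate 4 was closest to untreated replicate 1 (0.278) and untreated replicate 4 to BV6 replicate 3 (0.261). Standard errors and intervals come from the F statistic. Replicates differed by far more than the counting noise of independent counts (chi-square per degree of freedom of at least 28.5), so no library was counted as a copy of another. Ratios were tested with scipy 1.17.1. Exon lengths and overlaps were those of GENCODE 44, in which 36327 IDs and all 10 genes matched by symbol. Promoter windows are from RefSeq. The tests were checked on simulated counts with 200 genes changed by 2 on the log2 scale. Here edgeR recovered 200 with 14 false calls, and 200 with 13 under the block. DESeq2 recovered 199 with 48 false calls, and limma 200 with 14. The simulated counts held no replicate effect and only changes of 2 on the log2 scale. The check therefore does not cover the pairing or the smaller changes of RELB, NFKB1 and NFKBIE.

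The 10 genes, the lists and the tests were chosen with earlier results of these data known. Named beside the 10 genes were, from each pathway list, those with an adjusted p below 0.05, at most 5 a list. Genes that share exonic bases with a member were also named. For NFKB2, NFKBIA, NFKB1 and RELA, genes among the 3 of most similar profile were named as well. The markers, MAP3K14 and targets below the filter are named outside this rule, after their values were seen. Alternatives were RLE factors, the Wald test of DESeq2 1.42.0, no filter or 10 counts in every sample, limma 3.58.1 on log2(CPM + 1), raw library totals, 0.5 count added to ratios, the longest transcript as length, and leaving out each of the 7 samples.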

Additional observations from a re-analysis of the deposited data

How the results depend on the processing

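With the replicate block, 5 of the 10 genes were called in place of 2, where 0.649% of all genes tested were called higher in place of 0.394%. The block brought in RELB (log2 fold change 1.07), NFKB1 (0.57) and NFKBIE (1.23), and it changed no other call among the 10 genes. NFKBIE was also called by the DESeq2 Wald test and without a filter on low counts, with a log2 fold change of 1.10 in each, and without BV6 replicate 3 (adjusted p = 0.0405, edgeR). The DESeq2 Wald test gave NFKB2 and NFKBIA adjusted p of 2.2e-09 and 7.7e-11. With each sample left out, between 0 and 3 of the 10 genes were called. The share of all genes called in these fits is not given here. The count of 0 arose without untreated replicate 4. There, the adjusted p of NFKB2 and NFKBIA was 0.0536 and 0.0579 (edgeR). Over these fits the log2 fold change lay between 1.54 and 1.86 for NFKB2, 1.83 and 2.40 for NFKBIA, 0.98 and 1.33 for NFKBIE, -0.043 and 0.24 for RELA, -0.16 and 0.37 for NFKBIB, and -0.20 and 0.38 for BCL3. RELA and NFKBIB turned negative without BV6 replicate 2, and BCL3 without BV6 replicate 4. The negative feedback list had 1 to 2 called genes in these fits, and the upstream list 2 to 3, with 2 whenever an untreated sample was left out. The list of other targets had 2 to 3, with 7 higher and 1 lower (8 in all) by the DESeq2 Wald test. Without BV6 replicate 3, 5 of the 10 genes had groups without overlap in place of 4. Over all 7 libraries, 4.94% of all genes tested lay higher without overlap, and fewer libraries make such a gap easier to reach. The cause of these shifts was not tested. RELB, REL, NFKB1 and NFKBIZ kept their direction in all fits, and RELB, at 285 to 1286 counts a library, was spread by more than counting error.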

Other observations

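Genes with the most similar profiles over the 7 libraries were found by the root mean square difference of centred log2(CPM + 0.5), among 17059 genes with a mean of at least 1 CPM. For NFKB2, these were KRT7, a keratin of simple epithelia, at a difference of 0.199, and TRIM47 at 0.232. GFPT2 also ranked among the first 3 for NFKB2 and NFKBIA, but its untreated levels of 0.194 to 0.552 CPM are close to the 0.5 added before the logarithm, so it is not read as similar. KRT7 stood at 2.85 to 5.31 CPM in untreated and at 7.06 to 15.8 CPM in BV6 libraries, with BV6 replicate 3 the lowest of its group, as for NFKB2. Its adjusted p was 0.0522 (edgeR).

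For NFKBIA, the similar genes were the histone deacetylase gene HDAC9 (0.340) and BIRC2 (0.385). HDAC9 (log2 fold change 2.01, adjusted p = 0.00446) and BIRC2 (1.54, adjusted p = 0.0269, both edgeR) were higher with BV6, which the choice by profile implies. BIRC2 stood at 283 CPM in BV6 replicate 2 and at 152 and 142 CPM in BV6 replicates 3 and 4, the order of NFKBIA. For NFKB1, TRIM16L (0.0704), TRIM16 (0.0767) and HHIPL2 (0.0984) were closest. TRIM16L is a close copy of TRIM16, so their counts are uncertain. RELA had the closest matches of all, with ATXN2L at 0.0385, C12orf10 at 0.0462 and AL589182.2 at 0.0471, where RELA itself varied by 0.214 about its mean. These are descriptions over 7 libraries that share their depth and pairing. Genes picked for a profile like that of NFKB2 or NFKBIA follow the rise with BV6 by that choice. The p-values given here for KRT7, HDAC9 and BIRC2 are therefore no separate support.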
